A study of Rattus norvegicus with 12 samples.

Results

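Fos, Jun and Dusp1 are immediate early genes, and their messenger RNA was followed here in rat CD4+ T cells directed against myelin basic protein (MBP). The set holds 3 genes of the 26405 listed in the count files, chosen by identifier: ENSRNOG00000008015 (Fos), ENSRNOG00000026293 (Jun) and ENSRNOG00000003977 (Dusp1). The symbols were given together with the gene set and do not appear in the files. All 3 genes were among the 11498 that passed the filter on low counts. The T cells expressed green fluorescent protein and came from wild type Lewis rats with experimental autoimmune encephalomyelitis, in which such cells attack the central nervous system (CNS). The 4 groups, with 3 libraries each, were cells from blood, from cerebrospinal fluid (CSF), from the meninges of the spinal cord and from CNS parenchyma. In every group the cells were purified by fluorescence-activated sorting at low temperature and kept in Trizol. The labels do not state the age of the rats, the stage of disease, any pooling of animals or the way cells were released from each site, so compartment and any handling step tied to it cannot be told apart.

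Immediate early genes are transcribed within minutes of a stimulus, without the need for newly made protein, and their messenger RNAs are short-lived. Fos and Jun encode proteins that pair to form the transcription factor AP-1, which in T cells acts with NFAT after the antigen receptor is engaged. Dusp1 encodes a phosphatase that switches off MAP kinases, the enzymes upstream of AP-1, and so acts as feedback. All 3 genes are also known to respond to tissue dissociation and sorting, so their levels are read here as measured in the recovered cells.

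Each library held between 11277725 and 22056664 counts in genes. In blood library 3 and meninges library 2, 65.2% and 61.4% of entries were listed as aligned to several places, against 35.8% to 43.9% in the other 10 libraries. No label ties a library to an animal, so p-values rest on a spread between libraries that may be technical in part. Markers of T cells and of other cell types were not analysed here, because the reference table held an Ensembl identifier in 0 of 47357 rows. The part of RNA from other cells in the results below was therefore not tested.

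The level of each of the 3 genes differed among the compartments (edgeR quasi-likelihood F test, adjusted p = 1.48e-07 for Fos, 6.38e-08 for Jun and 5.66e-05 for Dusp1). Such a difference was called for 3 of 3 members and for 53.8% of all genes tested. Fos and Jun were low in the cells from blood and many-fold higher in meninges and parenchyma. On average both were lower still in CSF, but CSF and blood libraries overlapped, and for Fos that call did not hold in every fit. Dusp1 shared the low level in CSF, but its blood level lay in the same range as its levels in meninges and parenchyma. In bulk RNA, fewer cells with a transcript and less transcript per cell cannot be told apart.

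**Figure D1:**
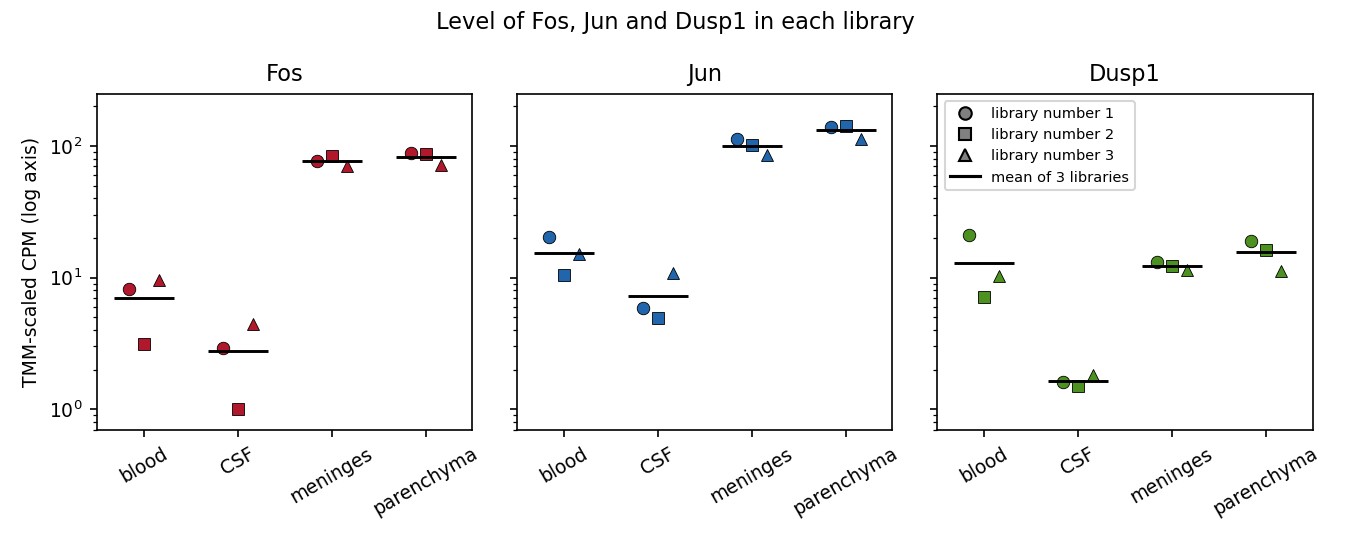
Level of each gene in every library, as CPM with TMM scaling (log axis), by compartment. Symbols give the library number and lines the mean of 3 libraries. Fos and Jun lie higher in all 6 meninges and parenchyma libraries than in all 6 blood and CSF libraries, whereas Dusp1 is set apart only by its low values in CSF.

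Fos is the AP-1 subunit that requires a partner such as Jun to bind DNA stably. As CPM, the share of a library's counts that a gene takes put on a fixed total and scaled between libraries by trimmed means of M values (TMM), Fos stood at 8.25, 3.14 and 9.56 in blood libraries 1, 2 and 3, on 146, 55 and 130 counts. In CSF the values were 2.92, 1.00 and 4.43 CPM, on 65, 20 and 63 counts. In meninges they were 76.7, 83.4 and 70.2 CPM, and in parenchyma 88.4, 87.2 and 72.2 CPM, on 883 to 1335 counts. Library 2 was the lowest in both blood and CSF, and the highest CSF library lay above the lowest blood library. No meninges or parenchyma library came near the range of blood or CSF.

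Fos averaged 2.78 ± 1.72 CPM (SD, n = 3) in CSF and 6.98 ± 3.39 in blood, against 76.8 ± 6.60 in meninges and 82.6 ± 8.98 in parenchyma. Against blood, Fos was 11.2-fold higher in meninges (log2 fold change 3.48, SE 0.32, edgeR adjusted p = 2.88e-06). In parenchyma it was 12-fold higher than in blood (log2 fold change 3.58, SE 0.32, adjusted p = 9.30e-07). The widest steps were from CSF, 28.7-fold to meninges (4.84, SE 0.36, adjusted p = 1.12e-05) and 30.9-fold to parenchyma (4.95, SE 0.36, adjusted p = 8.80e-07). Fos was also 2.58-fold lower in CSF than in blood (log2 fold change -1.37, SE 0.41, adjusted p = 0.0188). That last call did not hold without blood library 1, blood library 3 or CSF library 2 (adjusted p 0.0757, 0.0798 and 0.0692). It was also lost when only the 6 blood and CSF libraries entered the fit (adjusted p = 0.0847).

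Jun, the other AP-1 subunit, which can also pair with itself, followed the same order. Its level was 20.4, 10.5 and 15.1 CPM in blood libraries 1, 2 and 3, on 361, 183 and 206 counts. The CSF libraries held 5.89, 4.97 and 10.8 CPM, on 131, 99 and 153 counts. The meninges libraries held 112, 102 and 85.5 CPM and the parenchyma libraries 139, 141 and 113 CPM. As for Fos, library 2 was the lowest of blood and of CSF, and these 2 groups touched only through CSF library 3 and blood library 2. The parenchyma libraries all lay above the meninges libraries, although the closest pair, at 112 and 113 CPM, lay near each other. How many of all genes are separated between these sites was not counted. The difference between these sites was not called (edgeR adjusted p = 0.282).

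Jun averaged 7.20 ± 3.11 CPM (SD, n = 3) in CSF and 15.3 ± 4.97 in blood, against 99.8 ± 13.4 in meninges and 131 ± 15.9 in parenchyma. Relative to blood, Jun was 6.50-fold higher in meninges (log2 fold change 2.70, SE 0.24, edgeR adjusted p = 2.58e-06) and 8.52-fold higher in parenchyma (3.09, SE 0.245, adjusted p = 3.43e-07). Relative to CSF, it was 14.2-fold higher in meninges (3.83, SE 0.26, adjusted p = 8.89e-06) and 18.7-fold higher in parenchyma (4.22, SE 0.265, adjusted p = 2.89e-07). CSF cells held 2.19-fold less Jun than blood cells (log2 fold change -1.13, SE 0.27, adjusted p = 0.00531). This call held with each of the 12 libraries left out in turn, with adjusted p-values up to 0.0335.

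Dusp1, the MAP kinase phosphatase, gave a different profile. The 3 blood libraries held 21.1, 7.15 and 10.2 CPM, on 374, 125 and 139 counts, so that library 1 stood at 2.96 times library 2. The CSF libraries held 1.62, 1.5 and 1.83 CPM, on only 36, 30 and 26 counts. The meninges libraries held 13.1, 12.3 and 11.5 CPM, and the parenchyma libraries 19.1, 16.2 and 11.2 CPM. Every CSF library lay far below all others, and the blood range enclosed every meninges and parenchyma value.

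Dusp1 averaged 1.65 ± 0.164 CPM (SD, n = 3) in CSF, and 12.3 ± 0.795 in meninges, 12.8 ± 7.35 in blood and 15.5 ± 4.00 in parenchyma. It was 7.84-fold lower in CSF than in blood (log2 fold change -2.97, SE 0.37, edgeR adjusted p = 4.76e-05). It was 7.49-fold higher in meninges than in CSF (2.91, SE 0.38, adjusted p = 0.00102) and 9.42-fold higher in parenchyma than in CSF (3.24, SE 0.37, adjusted p = 3.38e-05). Neither difference from blood passed the test. Meninges stood at 0.955 times blood, with a 95% confidence interval of the ratio from 0.604 to 1.51 (adjusted p = 0.889). Parenchyma stood at 1.20 times blood, with an interval from 0.768 to 1.88 (adjusted p = 0.490). The parenchyma result turned on blood library 1: without it the log2 fold change was 0.845 (edgeR adjusted p = 0.00661). For meninges it was 0.514 without that library (adjusted p = 0.0996).

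A stretch of the Dusp1 promoter is shown because Dusp1 was the only member in the promoter table. The promoters of Fos and Jun were not searched, so a link between matches and the differing profile was not tested. The start region of Dusp1 holds matches to the core of the cyclic AMP response element. The capitals mark that core, TGACGT, on either strand. The stretch runs from 190 to 99 bases before the start of the gene, on the plus strand of chr10:17184663-17184754 in the RefSeq table for build GRCr8.
Dusp1: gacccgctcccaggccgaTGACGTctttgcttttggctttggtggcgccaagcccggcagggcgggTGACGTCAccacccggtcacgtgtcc

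The core begins 172 and 124 bases before the start, and at the second place the matches of both strands overlap, which is why the capitals run on there. The window searched reached from 250 bases before to 50 after the start, on both strands, and 7.94% of the 33469 promoters of that length in the table hold at least 1 such match. The GC box GGGCGG matched 3 times, and 33.1% of promoters hold it. There was no match to the TATA box TATAAA (14.2% of promoters), to the AP-1 site TGACTCA (4.63%) or to the CArG box (1.64%). A match is a description of letters only. Of the 3 members, 1 was in the promoter table.

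The comparisons are set side by side with their intervals. From blood to CSF, 3 of 3 members were called lower, against 20.0% of all genes tested. From CSF to meninges 3 of 3 were called higher, against 1.97% of genes, and from CSF to parenchyma 3 of 3, against 17.1%. The comparisons share libraries, so the low CSF values enter all of them. From blood, 2 of 3 members, Fos and Jun, were called higher in meninges, where 16.6% of genes were. The same 2 of 3 were called higher in parenchyma, where 24.6% of genes were.

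**Figure D2:**
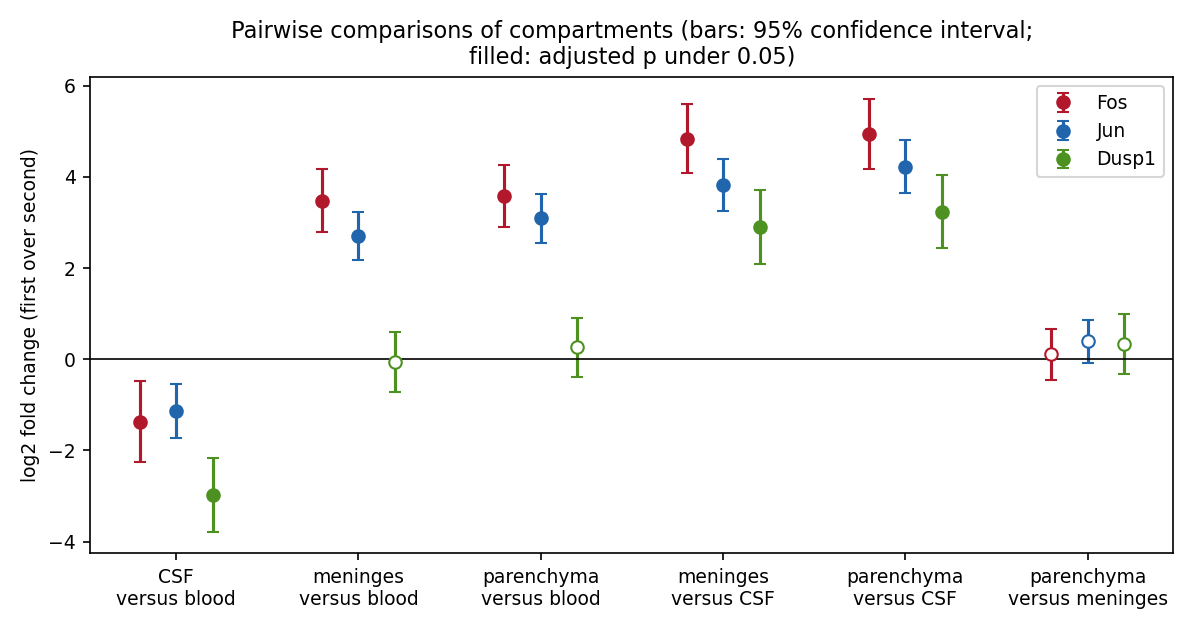
Log2 fold change of each gene in the 6 pairwise comparisons, first compartment over second, with 95% confidence intervals from the edgeR fit. Filled points have an adjusted p under 0.05. All 3 genes are below 0 for CSF against blood and above 0 for meninges and parenchyma against CSF, while the Dusp1 points of meninges and parenchyma against blood and all 3 points of parenchyma against meninges have intervals that include 0.

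Between parenchyma and meninges no member passed the test. Of the 3, 0 were called by edgeR, 0 by DESeq2 and 0 had an unadjusted p under 0.05, where 12% of all genes tested were called in either direction. The ratio of parenchyma to meninges was 1.08 for Fos, with a 95% confidence interval from 0.725 to 1.60 (edgeR adjusted p = 0.853). For Jun it was 1.31, from 0.947 to 1.82 (adjusted p = 0.282), and for Dusp1 1.26, from 0.797 to 1.98 (adjusted p = 0.549). These intervals leave room for a difference of up to 1.98-fold, so the 2 sites were not shown to be alike.

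Cells from the solid sites were also compared with cells from the fluids, a contrast chosen after the levels had been seen. Its p-values are therefore descriptive and add nothing to the pairwise tests. The mean of meninges and parenchyma exceeded the mean of blood and CSF by 4.21 on the log2 scale for Fos (SE 0.24, edgeR adjusted p = 3.03e-08), an 18.6-fold difference. For Jun the difference was 3.46 (SE 0.18, adjusted p = 1.51e-08), or 11-fold. For Dusp1 it was 1.58 (SE 0.24, adjusted p = 0.000181), or 3.00-fold, and it rests on the CSF libraries, since Dusp1 was not called against blood. All 3 members were called in this contrast, where 20.0% of genes were called higher. For 2 of 3 members, Fos and Jun, all 6 libraries of the solid sites lay above all 6 of the fluids, as they did for 4.80% of genes. The labels give no step of cell release for any compartment, so site and release cannot be told apart.

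Among all genes tested, the place of the 3 members depended on the comparison. From CSF to meninges, 4 genes of 11498 had a larger rise than Fos, 11 a larger rise than Jun and 30 a larger rise than Dusp1. By p-value in that comparison, 1 gene ranked before Jun, 3 before Fos and 33 before Dusp1. From CSF to parenchyma, 23 genes rose more than Fos, 46 more than Jun and 94 more than Dusp1. From blood to parenchyma, 111 genes rose more than Fos and 146 more than Jun, but 3147 (27.4%) more than Dusp1. From blood to meninges, 49 genes rose more than Fos and 111 more than Jun, while 4961 (43.1%) lay lower than Dusp1. From meninges to parenchyma, 3538 genes (30.8%) rose more than Fos, 959 more than Jun and 1211 more than Dusp1. From blood to CSF, 42 genes fell more than Dusp1, whereas 413 fell more than Fos and 609 more than Jun. The median log2 fold change of all genes lay between -0.0213 and 0.00379 in the 6 comparisons.

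**Figure D3:**
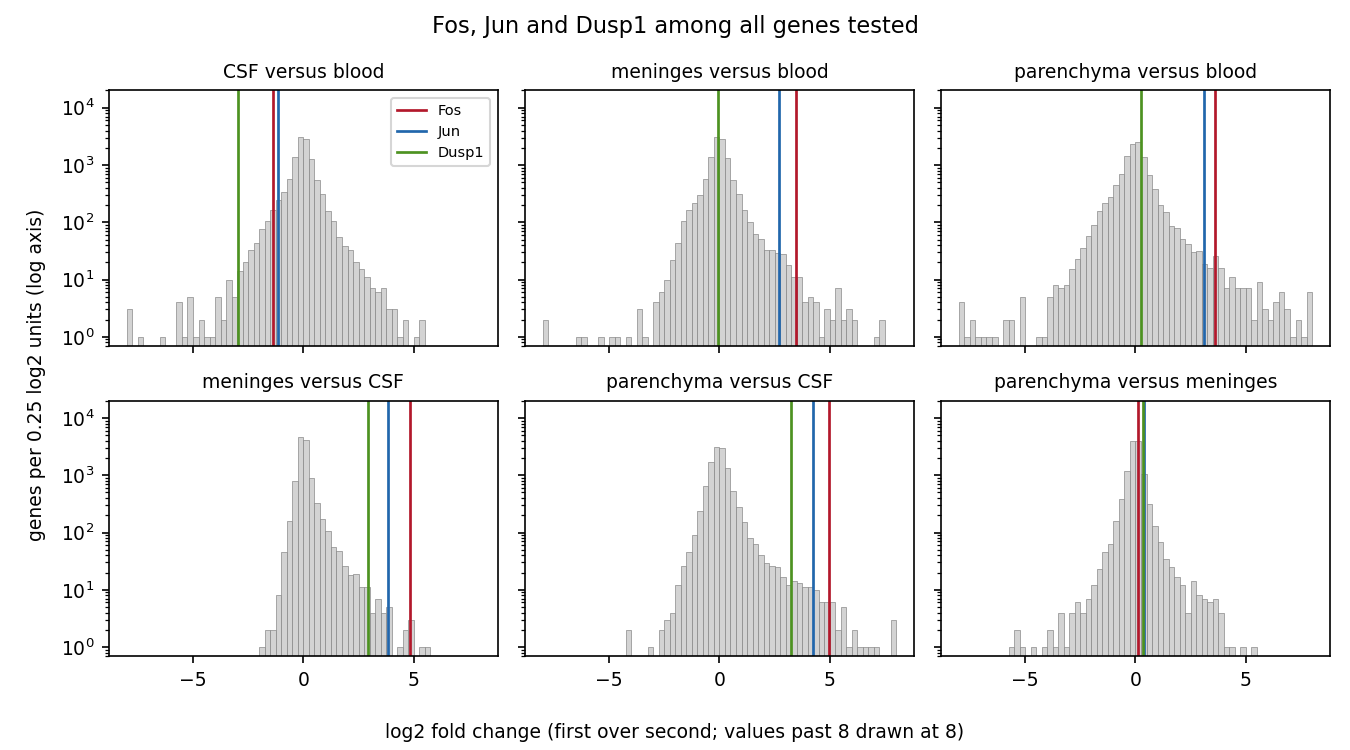
Histograms of the log2 fold change of all 11498 genes tested in each comparison (first compartment over second, 0.25 log2 units per bar, log axis of gene counts), with vertical lines at Fos, Jun and Dusp1. In meninges against CSF the 3 lines stand in the right tail, with 4, 11 and 30 genes beyond Fos, Jun and Dusp1.

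The balance between the 3 transcripts was read from the ratio of their counts within each library, which does not depend on scaling between libraries. Only its change between compartments is read, since the genes differ in length. The ratio of Dusp1 to Fos was 2.56, 2.27 and 1.07 in blood libraries 1, 2 and 3, and 0.554, 1.5 and 0.413 in CSF. It was 0.171, 0.148 and 0.164 in meninges and 0.216, 0.186 and 0.155 in parenchyma. Thus all 6 libraries of the solid sites lay below all 6 of the fluids. The ratio of Dusp1 to Jun averaged 0.798 ± 0.206 (SD, n = 3) for blood and 0.249 ± 0.0701 for CSF, with 0.124 ± 0.00932 for meninges and 0.117 ± 0.0191 for parenchyma. Here the CSF libraries stood apart from those of blood too, with no overlap. How many pairs of genes are separated in such a way was not counted for any ratio.

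Fos to Jun, the ratio of the AP-1 partners, averaged 0.445 ± 0.169 (SD, n = 3) for blood and 0.370 ± 0.151 for CSF, with 0.775 ± 0.0787 for meninges and 0.632 ± 0.0125 for parenchyma. The 3 parenchyma libraries held 0.636, 0.618 and 0.642, all below the lowest meninges library at 0.684. On the log2 scale, Dusp1 to Fos differed from blood by -3.52 in meninges and -3.32 in parenchyma, while Fos to Jun differed by 0.862 and 0.572. These shifts restate the fold changes of the single genes given above and are no separate result. Of 18 two-sided exact permutation tests on these ratios, those without overlap gave p = 0.1, the smallest that 3 against 3 libraries allow (adjusted p = 0.138). This test therefore could not reach 0.05 for any ratio, and no model over all 12 libraries was fitted to the ratios.

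**Figure D4:**
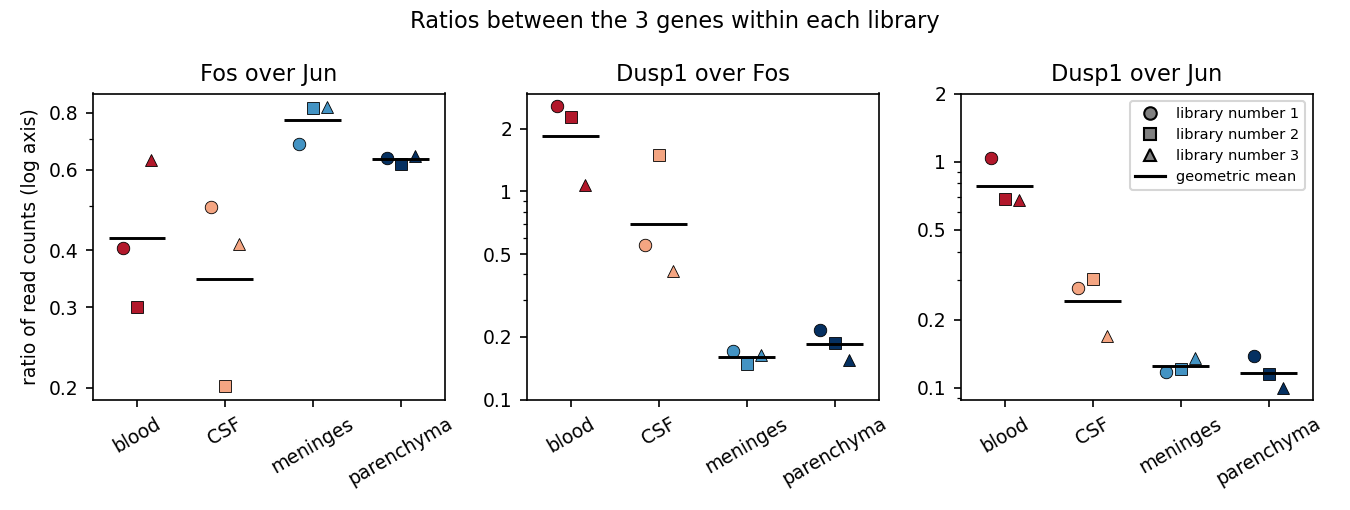
Ratio of read counts between pairs of the 3 genes within each library (log axes, which differ between panels), by compartment. Symbols give the library number and lines the geometric mean of 3 libraries. Dusp1 over Fos lies at 1.07 to 2.56 in blood and at 0.148 to 0.216 in meninges and parenchyma.

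For Fos and Jun, libraries of 1 compartment disagreed most in blood and CSF, where these transcripts were scarce, whereas Dusp1 varied least in CSF and meninges. The coefficient of variation of Fos was 48.5% in blood and 61.7% in CSF, against 8.60% in meninges and 10.9% in parenchyma. Counting alone would give 10.4% and 16.5% in the fluids, so their spread exceeded counting error. For Jun the coefficients were 32.4% in blood and 43.2% in CSF, against 13.5% in meninges and 12.1% in parenchyma. In the same order, counting alone would give 6.61%, 8.99%, 2.77% and 2.2%. Dusp1 varied by 57.3% in blood and 25.8% in parenchyma, but by 9.96% in CSF and 6.44% in meninges, where counting alone would give 18.2% and 7.87%.

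On log2 CPM, the SD of Fos was 0.850 in blood and 1.04 in CSF, larger than that of 98.0% and 99.7% of genes tested in those compartments. Without library 2, the farthest from the mean in both, the SD of the 2 libraries left was 0.148 in blood and 0.411 in CSF. Without library 1 it was 1.11 and 1.42. Leaving out the farthest of 3 values always lowers the SD, so this does not show that 1 library made the spread. In meninges its SD of 0.124 exceeded that of 52.7% of genes, close to the middle. The SD of Dusp1 exceeded that of 97.8% of genes in blood and of 48.3% in CSF. Its blood SD of 0.789 was 0.359 without library 1, and the SD of Jun in CSF, 0.577, was 0.169 without library 3. Here too the library left out was the farthest from the mean. Pooled over compartments, the SD was 0.678 for Fos, 0.398 for Jun and 0.448 for Dusp1, against a median of 0.142 over all genes. These percentiles are not matched for level, and genes with few counts vary more.

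The library numbers in the titles followed this spread in part. Relative to its compartment mean, Fos in library 2 stood at -0.974 log2 units in blood and -1.15 in CSF, but at 0.123 in meninges and 0.0834 in parenchyma. Jun in library 2 stood at -0.494 in blood and -0.445 in CSF, with 0.0368 and 0.116 in meninges and parenchyma. The low values of number 2 were thus found in both fluids and in neither solid site. Library 3 was the lowest for each of the 3 genes in both meninges and parenchyma, with deviations of -0.0941 to -0.431 log2 units, and the highest for each of them in CSF. Dusp1 stood highest in library 1 of blood, at 0.862, of meninges, at 0.0903, and of parenchyma, at 0.333. Like Fos and Jun, it was lowest in library 2 of blood, at -0.685, and of CSF, at -0.119 on only 30 counts.

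**Figure D5:**
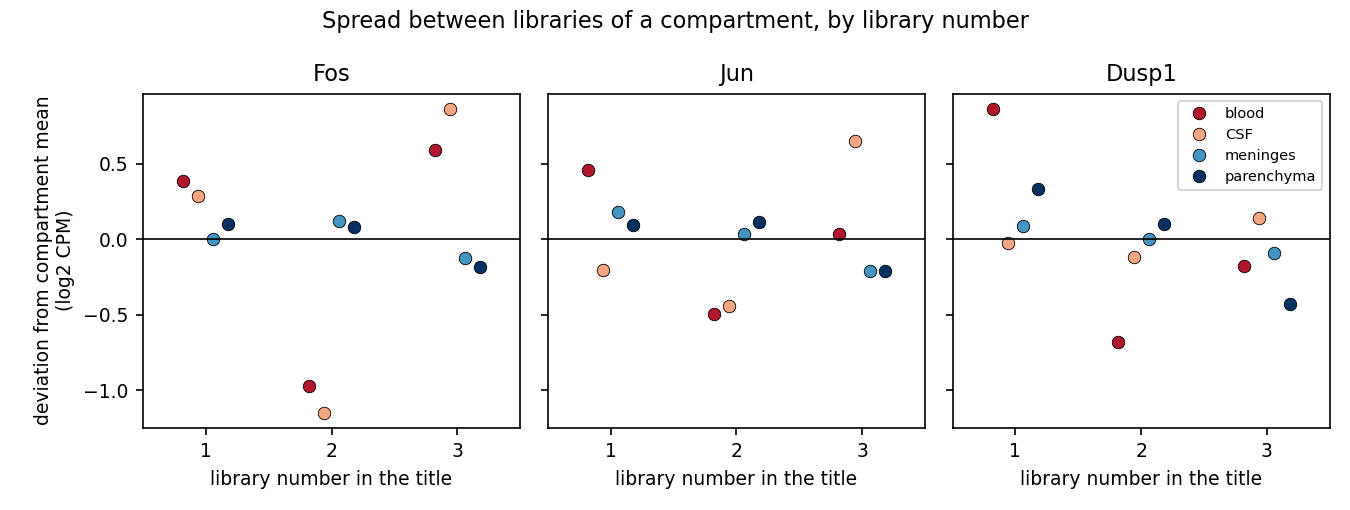
Deviation of each library from the mean of its compartment, in log2 CPM, by the number in the library title. Fos in library 2 lies at -0.974 in blood and -1.15 in CSF, while the meninges and parenchyma points of the same number lie near 0.

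Within each number the order of compartments was compared as well. In numbers 1, 2 and 3 alike, Fos and Jun rose in the order CSF, blood, meninges and parenchyma. For Fos the last step was small, at 1.15, 1.04 and 1.03 times. Without TMM scaling, Fos stood at 71.4 CPM in both meninges and parenchyma of number 3. Neither gene was called between these sites (edgeR adjusted p = 0.853 for Fos and 0.282 for Jun). How many of all genes share this order was not counted. The highest Fos level among the 4 libraries of a number was 30.3 times the lowest for number 1, 86.9 times for number 2 and 16.3 times for number 3. For Jun the corresponding ratios were 23.6, 28.4 and 10.5. Dusp1 was lowest in CSF in all 3 numbers, by 13.1, 10.8 and 6.31 times, but the highest compartment was blood for number 1, parenchyma for number 2 and meninges for number 3. Parenchyma over blood for Dusp1 was accordingly 0.905, 2.27 and 1.10 in the 3 numbers.

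Genes with a similar profile were sought over the 12 libraries among 8077 genes with a mean of at least 10 CPM, by the Pearson correlation of log2 CPM. The 12 points fall into 4 compartments, so the values describe the likeness and carry no test. The gene most like Fos was Jun (r = 0.989, Spearman's rho 0.958), and 13 genes, 0.161% of the candidates, had an r above 0.9 with Fos. The gene most like Jun was ENSRNOG00000046667 (r = 0.990, rho 0.93), with Fos next. ENSRNOG00000046667 stood at 3.33 ± 0.792 CPM (SD, n = 3) in CSF and 7.49 ± 1.13 in blood, against 125 ± 12.4 in meninges and 152 ± 47.7 in parenchyma. Dusp1 had fewer close matches. Only 2 genes had an r above 0.9 with it, its r with Fos was 0.771 and with Jun 0.786, and 115 genes lay closer to it than Fos. The closest was ENSRNOG00000027016 (r = 0.948, rho 0.825), at 5.36 ± 0.255 CPM (SD, n = 3) in CSF and 10.3 ± 0.797 in blood, with 11.6 ± 1.48 in meninges and 14.6 ± 0.816 in parenchyma. Its compartment means spanned a narrower range than those of Dusp1, which ran from 1.65 CPM in CSF to 15.5 in parenchyma.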

How the data were processed

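The deposited files, 1 for each library, list raw read counts as whole numbers for every gene, without normalization by the authors. Per the submitters' processing notes, CASAVA 1.8.2, STAR, SAMtools, HTSeq and DESeq2 were used, with no role stated. Genome build, annotation release and strand setting are not given in those sources, so reads of overlapping antisense genes may be mixed in. The 5 closing summary lines of each file (15.5% to 21.9% of entries outside any gene, 35.8% to 65.2% aligned to several places, 0.0412% to 0.0911% ambiguous) took no part in library sizes or tests.

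Groups and numbers came from sample titles. The analysis used edgeR 4.0.16 in R 4.3.3: filterByExpr (11498 of 26405 genes kept), scaling by the trimmed mean of M values, and 1 quasi-likelihood fit of all 12 libraries with compartment as the only term. Pairwise contrasts were two-sided, and standard errors and 95% confidence intervals were derived from the F statistic. Genes with a Benjamini-Hochberg adjusted p under 0.05 over all genes tested were called. Log2 CPM used a prior count of 2. Alternatives were RLE or no scaling factors, no filter, DESeq2 1.42.0, a replicate block, fits of 2 groups and libraries left out. Counting errors ignore duplicated molecules, because no molecular identifiers were used. The members and lists were chosen with earlier results of these data known. The planned lists of pathway genes and cell type markers need symbols and were not used, and besides the members the 2 identifiers most like Jun and Dusp1 are named.

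Libraries of 1 compartment differed by more than sampling noise in every pair (chi-square per gene 3.65 to 31.5). Same-numbered libraries deviated together over all genes, with correlations of 0.149 to 0.450 in 5 of the 6 comparisons. Between libraries of different numbers, the highest in those comparisons was 0.159. Deviations from a compartment mean cancel out, so high same-numbered correlations by themselves push those between different numbers down. The low values there are therefore no separate evidence. In meninges against blood the same-numbered correlations were 0.219, 0.252 and 0.0766, so 1 pair lay under the 0.1 asked of each. There, meninges library 3 was closer to a blood library of another number (0.219) than to its own. The labels do not say what a number stands for.

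On simulated counts for parenchyma against blood, over 11378 genes, 49.3% of 1.5-fold, 89.6% of 2-fold and 92.4% of 4-fold changes were recovered. Of the calls, 4.94% were false. The changed genes numbered 67, 67 and 66 at these folds, whereas 5783 genes were called in the measured comparison. The pooled SD of Fos, Jun and Dusp1 exceeded that of 98%, 89% and 91.5% of genes. Recovery for genes with such a spread was not tested, so these rates were not shown to hold for Fos, Jun or Dusp1.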

Additional observations from a re-analysis of the deposited data

How the results depend on the processing

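Over the 6 pairwise comparisons and the contrast of solid sites with fluids, 406 of 417 alternative values for Fos, Jun and Dusp1 kept their direction and their side of the threshold. Many of these could hardly differ, since leaving out a library of a site not compared scarcely moves the fold change. Fos in CSF against blood, for example, stayed at -1.34 to -1.36 without any 1 meninges or parenchyma library. The total is therefore no measure of robustness. Fos in CSF against blood was lost in the fit of these 2 groups alone (-1.33, edgeR adjusted p = 0.0847) and without both blood library 3 and meninges library 2 (-1.08, adjusted p = 0.0915), and ran from -1.77 to -0.942 with 1 library left out. With the replicate block it was -1.37 (edgeR adjusted p = 0.0103), and the block changed no call of the 3 genes. Dusp1 turned in sign, never past the threshold, to 0.0152 in meninges against blood with the replicate block and to -0.0797 in parenchyma against blood without the 4 libraries numbered 2, an alternative chosen after seeing the data. With 1 library left out, Dusp1 ran from -0.354 to 0.514 in meninges and from -0.023 to 0.845 in parenchyma, each against blood. Jun in parenchyma against meninges was called in the fit without the filter (0.409, adjusted p = 0.00110), whose prior degrees of freedom were 632 against 5.18 in the filtered fit, and its adjusted p was 0.0584 to 0.560 otherwise.

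The count of all genes called in meninges against CSF was 289, and 890 without the filter, 498 with DESeq2, 1046 with the replicate block, 539 without the libraries numbered 2 and 126 to 315 with 1 library left out. In parenchyma against meninges it was 1375, and 2428 with the block, 764 without blood 3 and meninges 2 and 739 to 1739 with 1 library left out. With 1 library left out, the log2 ratio of Fos to Jun in CSF against blood ran from -0.559 to 0.0893 (0.0893 without CSF library 2), and that of Dusp1 to Jun in parenchyma against meninges from -0.214 to 0.0189 (0.0189 without parenchyma library 3). Depth limits Dusp1 most in CSF, where 26 to 36 counts stood behind each value.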
